A study of Mus musculus with 2 samples.

Results

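The miR-26 family of the mouse heart is made from 3 genes, Mir26a-1, Mir26a-2 and Mir26b, each of which lies in an intron of a gene of the Ctdsp family. The 3 genes were found by matching the gene identifiers of the deposited count tables to GENCODE M21 gene names, and they are 3 of 2202 annotated microRNA genes. The tables come from microRNA sequencing of heart tissue of female F1 hybrid mice (B6CASTF1/J) aged 14 days, from libraries of RNA under 30 bases. Both libraries, numbered as biological replicates 1 and 2, form a single group, so no condition was compared and the data give levels and how far the libraries differed. The sample description mentions 3 females for replicate 1 and a single female for replicate 2, without saying that tissue was pooled. The age follows the age field, although another text field speaks of months.

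MicroRNAs guide Argonaute proteins to messenger RNAs, mostly by pairing of the seed (bases 2 to 8 of the mature strand), and lower the output of those messages. A hairpin can give a mature strand from each arm, named 5p and 3p. The miR-26 genes are transcribed together with their hosts Ctdspl, Ctdsp2 and Ctdsp1, which encode small phosphatases of the RNA polymerase II carboxy-terminal domain, and both the phosphatases and miR-26 are known to act on the step from G1 to S phase of the cell cycle. In muscle precursor cells miR-26a is known to repress Ezh2, the methyltransferase of the Polycomb complex, and in the atria miR-26 is known to repress Kcnj2, which encodes an inward rectifier potassium channel.

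The mature strands show what the 3 genes share and where they differ, and decide which reads can be assigned to a single gene. They are given 5′ to 3′ with the seed in capitals (RefSeq, GRCm38.p6, the build also called mm10).
miR-26a-5p (Mir26a-1 and Mir26a-2): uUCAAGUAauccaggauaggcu
miR-26b-5p (Mir26b): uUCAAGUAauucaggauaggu
miR-26a-1-3p (Mir26a-1): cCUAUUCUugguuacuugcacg
miR-26a-2-3p (Mir26a-2): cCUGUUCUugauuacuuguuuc
miR-26b-3p (Mir26b): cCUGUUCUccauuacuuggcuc

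The 5p strand of both miR-26a genes is the same sequence of 22 bases. That of Mir26b has 21 bases and differs from it at C11U and C21U, counted from the 5′ end with the miR-26a base first, so 19 of 21 compared positions are identical. All 3 genes have the 5p seed UCAAGUA, and among 1738 mature entries of the RefSeq table no other gene has it. The 3p strands are less alike. Those of Mir26a-1 and Mir26a-2 are identical at 16 of 22 positions, those of Mir26a-2 and Mir26b at 18 of 22, and those of Mir26a-1 and Mir26b at 14 of 22. Mir26a-2 and Mir26b share the 3p seed CUGUUCU, which Mir26a-1 lacks through A4G. That 3p seed is also listed for miR-6932-3p and miR-7039-3p.

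The hairpins show how far the identity of the 2 miR-26a genes reaches. Capitals mark the longest run shared by Mir26a-1 and Mir26a-2 and, in Mir26b, its longest run shared with Mir26a-1.
Mir26a-1 (chr9:119031796-119031885, plus strand): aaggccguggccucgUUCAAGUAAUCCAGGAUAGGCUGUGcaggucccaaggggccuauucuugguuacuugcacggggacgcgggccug
Mir26a-2 (chr10:126995530-126995613, plus strand): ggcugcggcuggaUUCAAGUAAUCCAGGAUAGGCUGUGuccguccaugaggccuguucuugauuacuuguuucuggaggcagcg
Mir26b (chr1:74394310-74394394, plus strand): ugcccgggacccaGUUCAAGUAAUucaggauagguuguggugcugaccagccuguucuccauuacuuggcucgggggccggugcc

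The run shared by Mir26a-1 and Mir26a-2 has 25 bases and starts at the first base of miR-26a-5p, whereas Mir26b shares at most 11 bases in a row with Mir26a-1 and 10 with Mir26a-2. Of the windows of 22 bases, 4 of 69 in Mir26a-1, 4 of 63 in Mir26a-2 and 0 of 64 in Mir26b also occur in another RefSeq hairpin. The shared windows start at bases 16 to 19 of Mir26a-1 and at bases 14 to 17 of Mir26a-2, which are the first 4 bases of the 5p strand. A full miR-26a-5p read therefore matches both genes equally, while a 3p read of 22 bases matches a single hairpin. The deposited tables keep reads with several mapping places in a summary line and assign them to no gene. This line held 41.1% of the library in replicate 1 and 39.9% of it in replicate 2, and it does not record which of them were miR-26a-5p. Mir26a-1 and Mir26a-2 can thus be undercounted by an unknown amount, and the tables do not split the reads of a gene by arm.

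**Figure D1:**
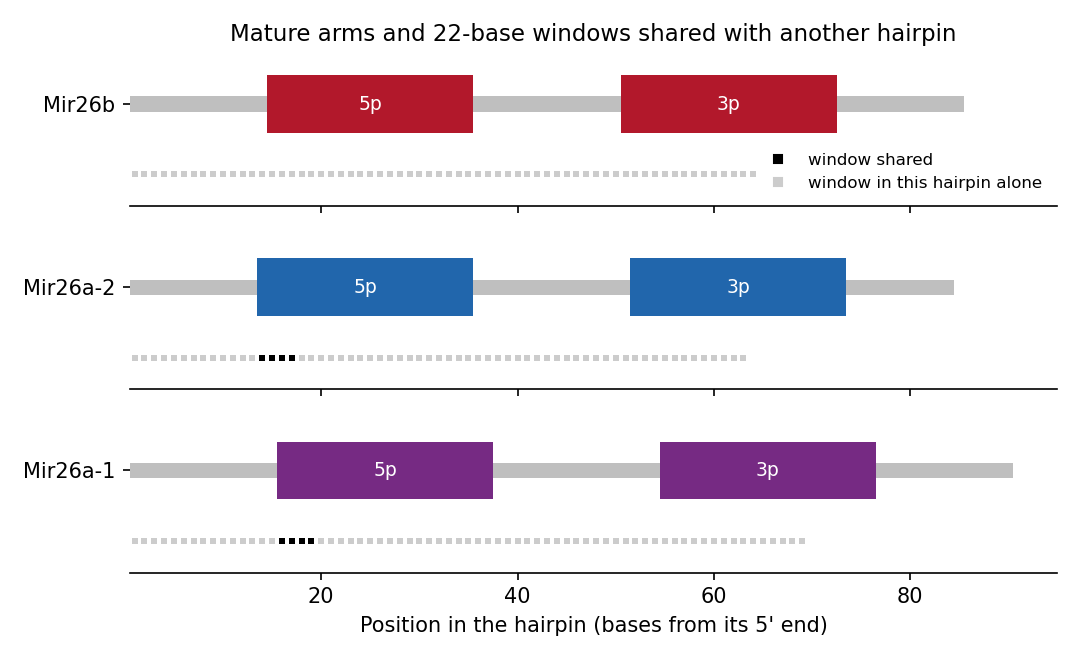
Hairpins of Mir26b, Mir26a-2 and Mir26a-1 drawn to scale, with the position in bases from the 5′ end on the x axis; coloured boxes are the mature arms, and each small square stands at the first base of a window of 22 bases, black where that window occurs in another hairpin and grey where it does not. Black squares stand at the first 4 bases of the 5p arm of both miR-26a genes, and Mir26b has 0.

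All 3 genes are intronic and lie on the strand of their host in GENCODE M21, with no exon of the host overlapping them. Mir26b lies in Ctdsp1, in intron 4 of its 7-exon protein-coding transcript, an intron of 564 bases. Mir26a-2 lies in intron 5 of the 8-exon transcript of Ctdsp2 (1946 bases). Mir26a-1 lies in an intron of 3283 bases of Ctdspl, which is intron 5 or 4 of its protein-coding transcripts. The distance from the end of the upstream exon to the hairpin is 234 bases for Mir26b, 1621 for Mir26a-2 and 1543 for Mir26a-1.

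Levels are given as reads on the gene's own strand scaled to 1000000 such reads over all microRNA genes (CPM). Replicate 1 had 5237062 such reads and replicate 2 had 3026501. Intervals are exact 95% Clopper-Pearson intervals. They cover counting error only, because they are computed from read counts and hold no variation between animals. Sequenced reads carried no stated molecular identifiers and need not be separate molecules, so the intervals can be too narrow even for counting error. A minimum of 10 reads in each library was met by 335 of the 2202 genes, and 2 of the 3 miR-26 genes, Mir26b and Mir26a-2, were among them. The tissue label was checked against microRNAs of cardiomyocytes. All 7 genes of that list had reads, Mir499 leading at 2984 ± 704 CPM (SD, n = 2) and Mir208a at 998 ± 506 CPM. Mir1a-1 stood at 1.37 ± 0.862 CPM and Mir133a-2 at 0.834 ± 0.712 CPM. Both make a microRNA that is also made from another locus, and reads with several mapping places are assigned to no gene. Their values can thus be undercounts and do not give the level of miR-1a or miR-133a. Heart tissue was sequenced as a whole, so fewer cells of a type and less RNA per cell cannot be told apart.

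Mir26b carried nearly all assigned reads of the family. It had 102966 reads in replicate 1 and 38461 in replicate 2. These are 19661 CPM (interval 19542 to 19780) in replicate 1 and 12708 CPM (12582 to 12835) in replicate 2, so that its mean was 16184 ± 4916 CPM (SD, n = 2). It ranked 13th and 15th of all microRNA genes in these libraries, and 14th by its mean. Both libraries thus place it among the microRNA genes with the most assigned reads. Genes that share a mature strand with another gene can rank too low, since reads with several mapping places are assigned to no gene.

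Mir26a-2 had 1211 reads in replicate 1 and 42 in replicate 2. Its level was 231 CPM (218 to 245) in replicate 1 and 13.9 CPM (10.002 to 18.8) in replicate 2, with a mean of 123 ± 154 CPM. The SD exceeds the mean, and the ranks were 116th and 242nd. The mean of this gene therefore describes neither library.

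Mir26a-1 had 45 reads in replicate 1 and 6 in replicate 2, which are 8.59 CPM (6.27 to 11.5) and 1.98 CPM (0.728 to 4.32). Its mean was 5.29 ± 4.67 CPM and its ranks were 285th and 383rd. Mir26a-1 was the lowest of the 3 genes in both libraries. In replicate 2 it stood at 2 times the 3 reads allowed by a count of 0, which are 0.991 CPM there.

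**Figure D2:**
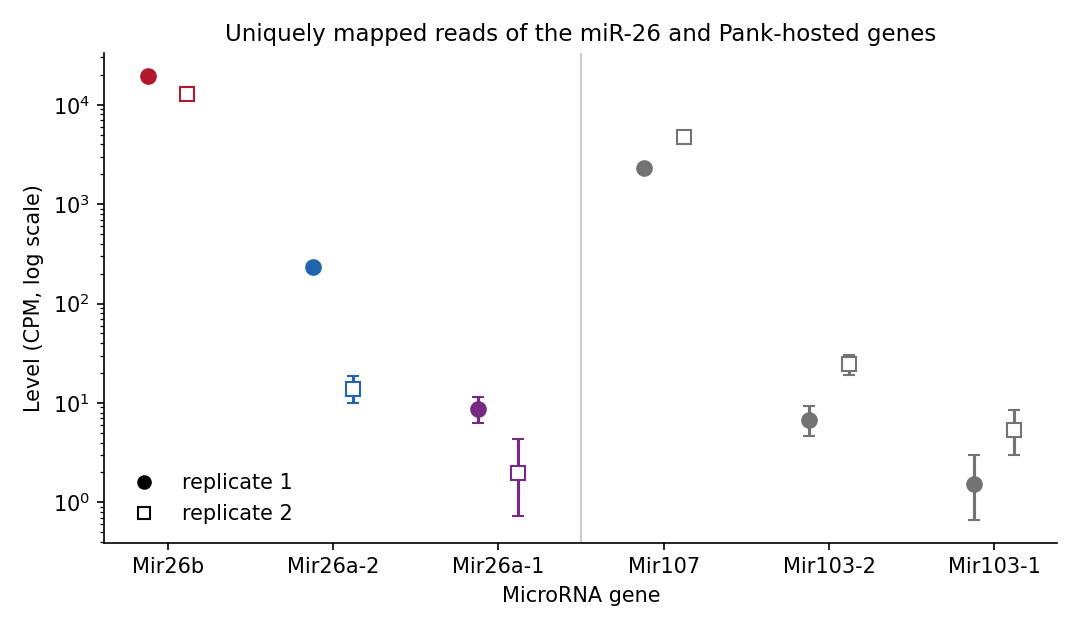
Level in CPM (log scale) of the 3 miR-26 genes (left, coloured) and the 3 Pank-hosted genes (right, grey), with filled circles for replicate 1, open squares for replicate 2 and bars for exact 95% counting intervals. Mir26b stands at 19661 and 12708 CPM, above Mir26a-2 at 231 and 13.9 CPM and Mir26a-1 at 8.59 and 1.98 CPM, and Mir107 stands above Mir103-2 and Mir103-1 in the same way.

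The order Mir26b, Mir26a-2, Mir26a-1 held in both libraries with counting intervals that do not overlap within a library. Set beside the spread over replicates, Mir26b lay apart from the other two, but Mir26a-2 in replicate 2 (13.9 CPM) was near Mir26a-1 in replicate 1 (8.59 CPM), and their means differed by less than the SD of Mir26a-2. Mir26b had 98.8% (98.7 to 98.9) of the family's assigned reads in replicate 1 and 99.9% (99.8 to 99.9) in replicate 2. The summed level of the 3 genes was 19901 CPM in replicate 1 and 12724 CPM in replicate 2, a mean of 16312 ± 5075 CPM.

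Ratios within a library do not depend on its depth. Mir26b had 85.0 times the reads of Mir26a-2 (80.3 to 90.1) in replicate 1 and 916 times (677 to 1271) in replicate 2. Per base of annotated gene these ratios were 84.0 and 905, as the genes have 85 and 84 bases. Mir26a-2 had 26.9 times the reads of Mir26a-1 (20.0 to 37.1) in replicate 1 and 7 times (2.96 to 20.1) in replicate 2, or 28.8 and 7.50 times per base. Mir26a-2 made up 96.4% (95.2 to 97.4) of the reads assigned to a miR-26a gene in replicate 1 and 87.5% (74.8 to 95.3) in replicate 2, intervals that overlap narrowly between the libraries. The ratio of Mir26b to Mir26a-2 thus differed between the libraries, with counting intervals that did not overlap. These are ratios of uniquely mapped reads, and since miR-26b-5p occurs in a single hairpin and miR-26a-5p in 2, they do not give the ratio of the mature microRNAs in the heart.

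All 3 genes had a higher CPM in replicate 1 than in replicate 2. With a single library on each side there is no test of this difference, so it is given as log2 of replicate 1 over replicate 2 with 0.5 reads added to each count, with an exact counting interval, and a gene is called different past 2-fold. Of 430 genes with at least 10 reads in sum, 27.2% lay past 2-fold, 17.2% being higher in replicate 1. Against this background, Mir26a-2 and Mir26a-1 lay past 2-fold, both higher in replicate 1, and Mir26b did not.

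Mir26a-2 differed most, by 4.04 on the log2 scale (interval 3.62 to 4.54), or 16.5-fold. Only 1 of the 430 genes had a higher log2 difference and 2 had a larger one in absolute size, and none of the 226 genes averaging 100 reads or more had a higher one. Mir26a-1 differed by 2.02 (0.88 to 3.64), or 4.05-fold, with 17 genes above it, and the lower end of its interval falls short of 2-fold. With 10 reads added to each count in place of 0.5, its difference was 0.99 and no longer past 2-fold. Mir26b differed by 0.63 (0.61 to 0.65), or 1.55-fold, with 113 genes above it. The median of all 430 genes was 0.08, so relative to it the differences were 3.96 for Mir26a-2, 1.93 for Mir26a-1 and 0.55 for Mir26b. TMM scaling lowers every log2 difference by 0.13, and the sign of the 3 genes held under TMM and under DESeq2 size factors.

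**Figure D3:**
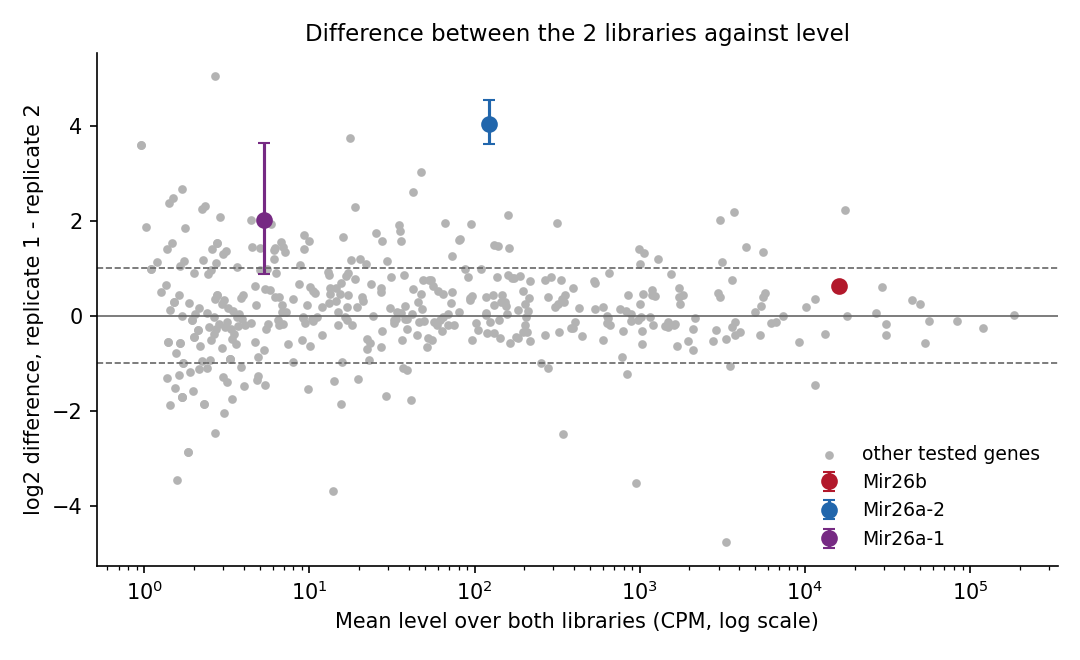
Log2 difference in CPM, replicate 1 minus replicate 2, against the mean level in CPM (log scale) for 430 genes with at least 10 reads in sum; grey points are other genes, coloured points the 3 miR-26 genes with counting intervals, and dashed lines mark 2-fold. Mir26a-2 at 4.04 lies far above the other genes of its level, and Mir26b at 0.63 lies within 2-fold.

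Marker lists of cell types differed between the libraries to unlike degrees. Of the lists with more than 1 gene, only the erythroid list lay past 2-fold as a whole. Both smooth muscle genes lay within 2-fold. The 2 genes of the erythroid list, Mir451a and Mir144, had a summed level of 337 CPM (replicate 1) and 6972 CPM (replicate 2). Both were lower in replicate 1 past 2-fold. Mir486, an erythroid microRNA outside the list, went the other way (534 CPM on average, log2 difference 0.68). The 4 leukocyte genes summed to 2489 and 3142 CPM in the same order, but only Mir155 was lower in replicate 1 (log2 difference -0.72). Mir142 (0.39), Mir150 (0.74) and Mir223 (1.96) were higher, and the median of the list was 0.57. The 7 cardiomyocyte genes summed to 5192 and 3454 CPM, a sum carried by Mir499 (0.49) and Mir208a (1.08). Mir1a-1 (-1.32), Mir1a-2 (-0.67) and Mir133a-1 (-0.39) went the other way, on the uniquely mapped reads of duplicated genes. Over the 6 cardiomyocyte genes tested the median was -0.10, with 1 higher and 1 lower past 2-fold. None of the erythroid, leukocyte and cardiomyocyte lists had a gene at 0 in both libraries. Mir126a, the endothelial gene, stood at 42911 CPM in replicate 1 and 63991 CPM in replicate 2. Their part in the difference of the miR-26 genes was not tested.

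The Pank family of microRNAs resembles miR-26 in layout: 2 genes with an identical main strand, Mir103-1 in Pank3 and Mir103-2 in Pank2, and another gene of near-identical sequence, Mir107 in Pank1. The hosts encode pantothenate kinases, which start the synthesis of coenzyme A. The 3p strands are shown because they differ at a single base, G22C with the miR-103 base first, which falls outside the seed in capitals.
miR-103-3p (Mir103-1 and Mir103-2): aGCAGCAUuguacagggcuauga
miR-107-3p (Mir107): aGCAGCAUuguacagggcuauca

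Mir107 held 99.6% (99.5 to 99.7) of the assigned reads of its family in replicate 1 and 99.4% (99.2 to 99.5) in replicate 2. The shares of Mir26b in its own family were 98.8% and 99.9%. These shares and the ratios below count uniquely mapped reads. A full miR-103-3p read matches 2 genes and is assigned to neither, so they do not give the ratio of the mature microRNAs. The families also differ in how far the remaining gene is unique. Of the hairpin windows described above, 5 of 66 in Mir107 also occur in another hairpin, against 0 of 64 in Mir26b. A miR-107-3p read that ends before the base that differs matches all 3 Pank-hosted genes. Mir107 can thus be undercounted too. Mir103-2 had 35 and 74 reads and Mir103-1 had 8 and 16. Mir107 had 343 times the reads of Mir103-2 in replicate 1 and 194 times in replicate 2, against 85.0 and 916 times for Mir26b over Mir26a-2. The split between the copies was steady in this family, Mir103-2 making up 81.4% (66.6 to 91.6) and 82.2% (72.7 to 89.5) of the reads of both copies. All 3 Pank-hosted genes were lower in replicate 1 past 2-fold, where 10% of all tested genes were. The log2 differences were -1.05 for Mir107, -1.86 for Mir103-2 and -1.75 for Mir103-1. The counting interval of Mir103-1 (-3.22 to -0.48) reaches inside 2-fold, and Mir107 lay just past it. The 2 families thus lay on opposite sides, but neither difference was tested.

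Both miR-26a genes belong to a list of 53 genes chosen as making the same microRNA from more than 1 locus. By symbol, 50 of them were found in the RefSeq table, and 48 had a mature strand identical to that of another gene. Of the 53, 43 had at least 10 reads in sum, with a median level of 54.5 CPM, against 31.0 CPM over all 430 tested genes. Mir26a-2 was the 15th and Mir26a-1 the 35th of the 53 by mean level. Mirlet7f-2 was the highest at 5540 CPM, while Mir9-1, Mir9-2, Mir19b-2, Mir196a-1 and Mir199a-1 had 0 reads. Of the 43, 7 were higher and 8 lower in replicate 1 past 2-fold, where 17.2% of all 430 were higher and 10% lower. Their median log2 difference was -0.03, against 0.08 over all 430. Mir26a-2 had the highest difference of the list. Of the 1018 genes matched to RefSeq mature sequences by symbol, 94 had an arm identical to that of another gene there. Of these, 42.6% had at least 10 reads in each library, with a median level of 71.3 CPM, against 28.4% of the other 924, with a median of 74.3 CPM. A mean above 10000 CPM was reached by 0 of the 94 and by 15 of the 924, Mir26b among them, a share too small for the 0 to be informative.

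The list of microRNAs reported to repress Ezh2 holds the 3 miR-26 genes and 7 others. Of its 10 genes, 9 had at least 10 reads in sum, and Mir101c had 0 reads in both libraries. Past 2-fold, 2 of 9 were higher in replicate 1, Mir26a-1 and Mir26a-2, and 0 were lower, where 17.2% of all tested genes were higher and 10% lower. The share of this list is thus near the background. The median log2 difference was 0.63 against 0.08 over all tested genes, but 0.63 is the value of Mir26b itself. The tested genes of the list that are not members all lay within 2-fold, between -0.66 and 0.82. The median is thus no result about the list apart from its members. Mir26b was the most abundant of the list, followed by Mir98, a let-7 family gene, at 2170 ± 41.0 CPM and Mir214 at 1736 ± 487 CPM. Mir98 was nearly equal in both libraries (2141 and 2199 CPM, log2 difference -0.04). Mir101b, of a family known as repressors of Ezh2, had 117 and 66.1 CPM (0.82), and Mir101a had 39.7 and 22.5 CPM (0.81). Mir138-1 had 79.4 and 113 CPM (-0.51) and Mir138-2 had 39.9 and 63.1 CPM (-0.66).

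**Figure D4:**
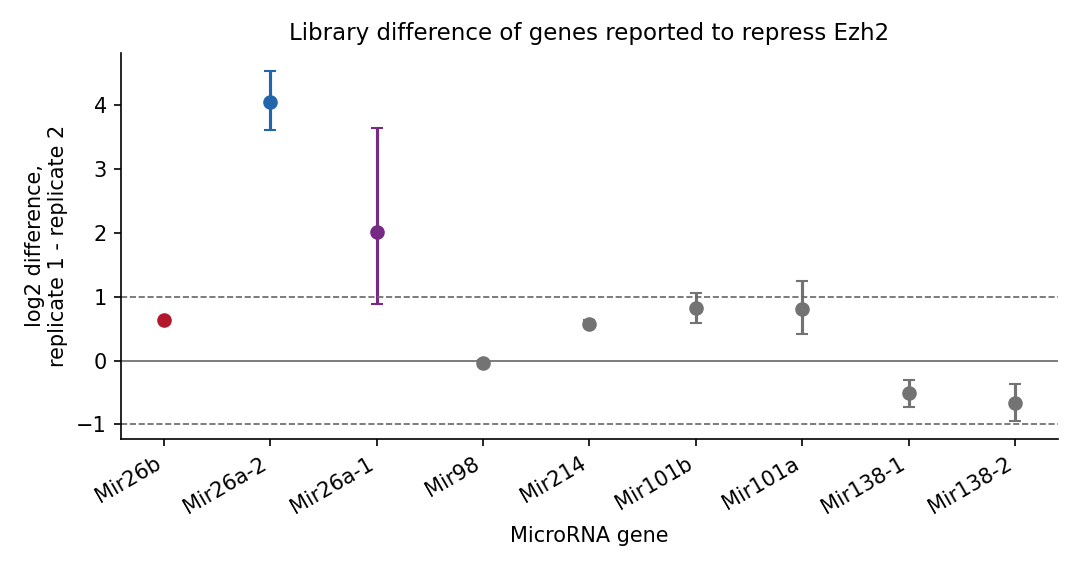
Log2 difference in CPM, replicate 1 minus replicate 2, for the 9 genes of the Ezh2 list with at least 10 reads in sum; bars are exact 95% counting intervals and dashed lines mark 2-fold. Mir26a-2 (4.04) and Mir26a-1 (2.02) lie above 2-fold, and the other 7 genes lie between -0.66 and 0.82.

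The genes most like each miR-26 gene were sought among the 333 other genes that met the minimum of 10 reads in each library. In level, measured as the mean of log2(CPM + 1) over 2 libraries, Mir26b stood nearest to Mir30d (17950 ± 28.0 CPM), Mir22 (17536 ± 16021 CPM) and Mir652 (13317 ± 2495 CPM). Mir26a-2 stood nearest to Mir196b (56.9 ± 3.71 CPM), Mir381 (60.4 ± 15.3 CPM) and Mir29c (59.6 ± 5.43 CPM), whose libraries were far closer to each other than those of Mir26a-2. Mir26a-1 stood nearest to Gm38670 (4.81 ± 3.02 CPM), Mir33 (4.41 ± 0.301 CPM) and Mir302d (4.90 ± 2.88 CPM). The annotated length of the genes named as nearest ranged from 64 to 110 bases.

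Likeness in log2 difference between the libraries was sought among the same 333 genes and rests on a single number per gene. Mir26b stood nearest to Mir222 (0.62), Mir410 (0.62) and Mir412 (0.61). Mir26a-1 stood nearest to Mir21a (2.01), Mir223 (1.96) and Mir487b (1.95). Outside these genes, Mir200a had the same difference as Mir26a-1 (2.02) at a mean of 4.45 CPM. It did not meet the minimum of reads in each library, and neither did Mir26a-1. Mir26a-2 had no close match among them: its nearest genes, Mir200b (3.02), Mir375 (2.59) and Mir3068 (2.29), lay 1.02 to 1.76 log2 units below it. The minimum of 10 reads in each library leaves out genes with few reads in replicate 2. Genes left out by it lay nearer: Mir205 (3.73), Mir1b and Mir3544 (3.60 each) below Mir26a-2, and Mir34b (5.04) above it.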

How the data were processed

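Per the labels and the readme deposited with the tables, microRNA reads of 2 heart libraries were counted per gene against mm10 with GENCODE M21. The deposited values are whole-number read counts, not normalized by the authors. For trimming, aligner and counter, the tools are not given in the sources. The table's own-strand counts were used, and the 4 summary lines were left out of library sizes. Unmapped reads made up 13.4% of replicate 1 and 13.3% of replicate 2, and reads outside microRNA genes 4.33% and 4.30%.

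All 2202 identifiers matched GENCODE M21. Differences were computed with 0.5 reads added, for every gene whose summed count reached 10 reads. No model across genes was fitted, since 1 library a side leaves no residual degrees of freedom. The members and lists were chosen with earlier results of these data known. The rule for named genes took the 3 members, the 3 genes nearest to each in level and in difference, the Pank and Ezh2 lists and the highest and lowest of the duplicated list. All 3 members matched RefSeq sequences by symbol. The annotation of the hairpins in RefSeq and GENCODE had equal coordinates for the 6 miR-26 and Pank-hosted genes. Marker lists held the microRNAs of cardiomyocytes, endothelium, smooth muscle, erythroid cells, leukocytes, liver and skeletal muscle. The summed level of the smooth muscle genes was 30333 CPM (replicate 1) and 33879 CPM (replicate 2), liver Mir122 stood at 55.9 and 70.4 CPM and skeletal muscle Mir206 at 7.83 and 20.5 CPM. Tools were Python 3.11.15, pandas 2.3.3, numpy 2.4.6, scipy 1.17.1, matplotlib 3.10.9, and, for scaling alternatives, R 4.3.3 with edgeR 4.0.16 (TMM) and DESeq2 1.42.0 (size factors).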

Additional observations from a re-analysis of the deposited data

How the results depend on the processing

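The direction of all 3 miR-26 genes held under TMM, DESeq2 size factors, a pseudocount of 10 and unstranded reads. The log2 difference of Mir26b was 0.50 with TMM, 0.53 with DESeq2 size factors and 0.59 with unstranded reads, and that of Mir26a-1 fell just short of 2-fold with a pseudocount of 10 (0.99). The level of Mir26b was 22078 CPM with unstranded reads, whose denominator is smaller, and 6752 when scaled to 1000000 of all reads. Leaving out replicate 1 or replicate 2 put Mir26b at 12708 to 19661 CPM, Mir26a-2 at 13.9 to 231 CPM and Mir26a-1 at 1.98 to 8.59 CPM. The log2 ratio within a library ranged from 6.41 to 9.84 for Mir26b to Mir26a-2, from 11.16 to 12.65 for Mir26b to Mir26a-1 and from 2.81 to 4.75 for Mir26a-2 to Mir26a-1. Of all tested genes, 74 were higher and 43 lower in replicate 1 past 2-fold. With at least 10 reads in both libraries, which leaves fewer genes, 44 were higher and 22 lower. With no filter, which adds genes, 171 were higher and 121 lower. With a pseudocount of 10, which shrinks low genes, 35 were higher and 37 lower. No paired analysis was possible because there is 1 group. The depth limits Mir26a-1 most, with 6 reads in replicate 2.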

Other observations

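On the strand opposite to the gene, Mir26b and Mir26a-2 had 0 reads in both libraries. Mir26a-1 had 0 in replicate 1 and 2 in replicate 2, fewer than the 3 reads that a count of 0 allows. These 2 reads stood beside 6 on its own strand.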
